A study of Mus musculus with 12 samples.

Results

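The genes described here are the Zfp genes of mouse liver, the members of the zinc finger protein families that carry the symbol Zfp and a number. They were selected on their read counts, as the protein-coding genes of the deposited count table whose GENCODE symbol is Zfp followed by digits only, without Zfp36, and that had at least 10 reads in each of the 12 libraries. Of 382 such genes, 236 met the read minimum, among 55414 genes in all. Of the other 146, 32 had no read in any library. The read minimum is the measured value by which the members were chosen, so that their levels are given as a description and no test was made over the group.

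Bulk RNAseq was made from livers of 12 female C57Bl/6J mice, aged 8 to 12 weeks, in 4 groups of 3. Mice received 300 mg/kg FeSO4 (iron sulfate, an acute iron overload) or 0.9% NaCl and 6 h later 10 mg/kg dexamethasone (DEX, a synthetic glucocorticoid) or PBS. Livers were taken 2 h after the second injection, so that every mouse had 2 injections. The groups are called NaCl/PBS, NaCl/DEX, FeSO4/PBS and FeSO4/DEX, and their totals lay between 16335651 and 23827340 reads counted on genes.

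Most Zfp proteins bind DNA through arrays of zinc fingers, short loops in which cysteine and histidine residues hold a zinc ion. Many also carry a KRAB domain, which recruits Trim28 (KAP1) and through it a histone methyltransferase and heterochromatin proteins, and these KRAB zinc finger proteins are known for silencing retroelements and imprinted loci. KRAB genes lie in clusters that arose by gene duplication. Other Zfp proteins are transcription activators, or act on RNA, ribosomes or ubiquitin.

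The proteins encoded by the canonical transcripts held a median of 10 zinc fingers, from 0 to 40. A KRAB A box was found in 135 of the 236 members and not in 101, and in 101 of the 146 Zfp genes under the read minimum. Members with the box had a median of 12 fingers, and members without it 8. The Zfp genes were expressed at a low level. Their mean normalized counts (TMM-scaled) over the 12 mice had a median of 129, with an interquartile range of 64.4 to 252, while the 10995 other genes that met the same read minimum had a median of 367. Per length of the exons, the members had a median of 3.74 TPM (a share of all length-scaled counts) and the other genes of 10.3 TPM. Members with a KRAB A box were lower, with a median of 2.74 TPM, than members without it, with 5.88 TPM.

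The highest levels per length were those of Zfp598, a ubiquitin ligase that senses collided ribosomes, with a mean of 43.7 TPM over the 12 mice. Zfp110, whose protein binds a neurotrophin receptor, had 35.3, Zfp445, a KRAB protein that protects imprints, 34.5, Zfp706 33.0 and Zfp106, an RNA-binding protein, 27.3. At the other end, Zfp112, Zfp420 and Zfp109 had 10 reads in their lowest library and just met the minimum. Zfp760, Zfp101 and Zfp93 had 9 and just missed it. Zfp760 had 350, 162 and 249 reads in NaCl/PBS mice against 21, 25 and 9 after FeSO4 alone. The minimum thus leaves out genes that were low after FeSO4. Of the 146 Zfp genes left out, 40 were under it in FeSO4 libraries alone, 3 in NaCl libraries alone and 103 in both.

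The regions upstream of the canonical transcripts of 4 members are shown because these genes had the largest fall and rise after FeSO4, the largest rise after DEX, and the lowest p for a difference between the DEX responses. The region of Zfp276 lies inside the gene as annotated and is upstream of its canonical transcript only. Each is the 250 bases before the 5′ end of the canonical transcript in GRCm39, read 5′ to 3′ on the strand of the gene, with matches to searched motifs in capitals.
Zfp626, chr7:27506371-27506620, plus strand: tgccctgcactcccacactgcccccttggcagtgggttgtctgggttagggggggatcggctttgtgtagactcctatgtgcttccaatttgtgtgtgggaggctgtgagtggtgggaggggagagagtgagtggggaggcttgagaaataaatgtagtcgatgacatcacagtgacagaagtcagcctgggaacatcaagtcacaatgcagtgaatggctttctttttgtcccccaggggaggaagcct
Zfp746, chr6:48063680-48063929, minus strand: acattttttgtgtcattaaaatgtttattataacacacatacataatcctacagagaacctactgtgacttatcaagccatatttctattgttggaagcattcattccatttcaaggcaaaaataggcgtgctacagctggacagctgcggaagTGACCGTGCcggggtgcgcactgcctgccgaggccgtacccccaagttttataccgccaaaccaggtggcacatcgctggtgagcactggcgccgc
Zfp276, chr8:123980631-123980880, plus strand: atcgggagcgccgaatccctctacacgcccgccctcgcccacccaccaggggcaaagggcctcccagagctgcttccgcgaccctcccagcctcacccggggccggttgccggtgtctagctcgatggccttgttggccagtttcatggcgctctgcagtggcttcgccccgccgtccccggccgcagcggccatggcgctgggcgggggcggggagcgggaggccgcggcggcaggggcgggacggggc
Zfp707, chr15:75840716-75840965, plus strand: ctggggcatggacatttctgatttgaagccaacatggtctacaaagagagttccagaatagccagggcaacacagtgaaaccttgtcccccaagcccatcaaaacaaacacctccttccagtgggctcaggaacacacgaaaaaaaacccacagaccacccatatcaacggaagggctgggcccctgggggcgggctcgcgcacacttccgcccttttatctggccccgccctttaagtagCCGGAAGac
The capitals mark TGACNNNGC (the letters of an NRF2 element) in Zfp746 and CCGGAAG (ETS factors) in Zfp707, and the regions of Zfp626 and Zfp276 held none of the letters searched. Motifs were searched on both strands. In the 236 members CCGGAAG was present in 12.3% and in the 10604 other protein-coding genes with such a region in 10.2%. TGACNNNGC was present in 11.4% against 10.8%, ACTACAA (ZNF143) in 5.51% against 4.01% and CACGTG (the E-box of clock factors) in 7.20% against 8.02%. TGANTCA (AP-1) was present in 5.08% against 4.33%, TGACGTCA (CREB) in 1.69% against 2.12% and the NRF1 element in 1.69% against 1.06%. The letters of a glucocorticoid response element were in 0 members and in 0.217% of the others, which says only that these letters are not in this window. The median share of G and C bases was 52.4% in the members and 56.8% in the others.

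The FeSO4 effect was taken from the FeSO4/PBS and the NaCl/PBS mice. More Zfp genes fell than rose. In the edgeR quasi-likelihood test, at a Benjamini-Hochberg FDR of 0.05 or less over 13857 genes, 90 of the 236 members (38.1%) were lower and 47 (19.9%) were higher in FeSO4/PBS mice. Of all genes tested 27.3% were lower and 27.2% higher, and of the 10995 other genes at the same read minimum 26.9% and 29.1%. The members' median log2 fold change (LFC) was -0.27, with an interquartile range of -0.84 to 0.36, and that of the other genes 0.02. Beyond an LFC of 1 in size, 52 members (22.0%) were lower and 20 (8.47%) higher, against 11.5% and 10.8% of the other genes and 18.3% and 8.30% of other protein-coding genes in the middle level range, 64.4 to 252 normalized counts. With scaling by library size alone, the median LFC of all tested genes moved from -0.02 to -0.34, and 123 members were lower and 28 higher. The median of the members minus that of the other genes was -0.28 with either scaling. A change of scaling shifts all genes nearly alike, so it could hardly change this difference. With 1 mouse left out the difference ran from -0.34 to -0.22.

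Calls varied with the level of the genes. Among the 2999 other protein-coding genes whose mean lay in the interquartile range of the members, 36.9% were lower and 18.4% higher after FeSO4, with a median LFC of -0.22. The 118 members in that range had 43.2% lower and 17.8% higher, with a median of -0.34. At levels under 64.4 normalized counts, 23 of 59 members and 28.6% of 1054 other protein-coding genes were lower, with medians of -0.61 and -0.30. Above 252 normalized counts, 27.1% of 59 members and 24.3% of 5146 others were lower, and 37.3% and 35.6% were higher. The median of both was 0.11. These level ranges were chosen after the data had been seen, and the differences between members and others within them were not tested.

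**Figure D1:**
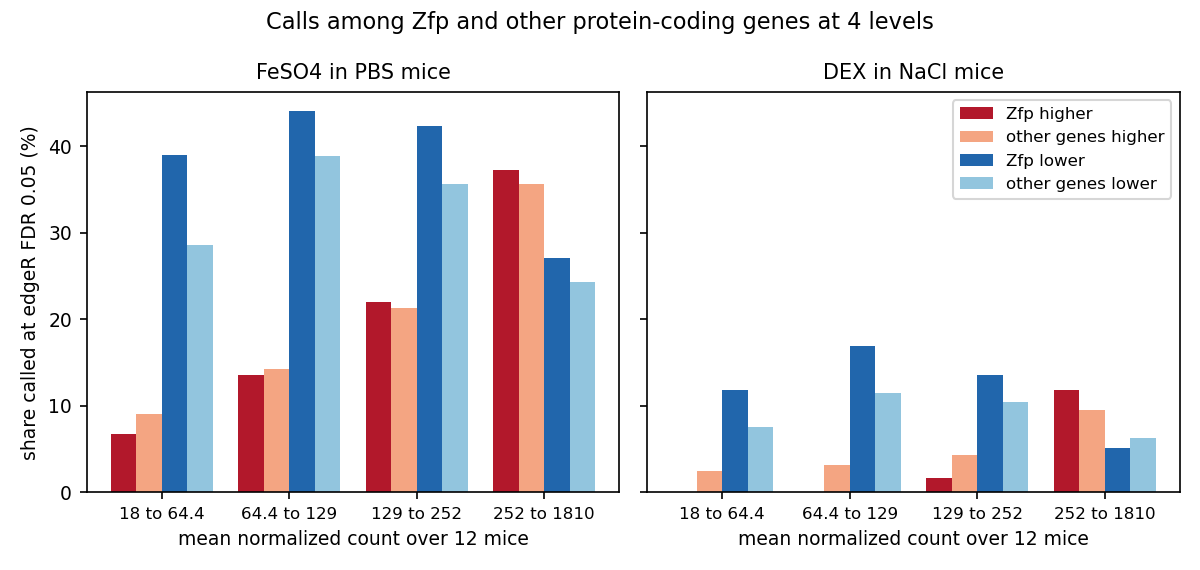
Bars show the share of Zfp genes (dark) and of other protein-coding genes (light) called higher (red) or lower (blue) by edgeR, in 4 ranges of the mean normalized count, for the FeSO4 effect in PBS mice (left) and the DEX effect in NaCl mice (right). In both groups of genes the shares called higher after FeSO4 grow with the level, from 6.78% of the members in the lowest range to 37.3% in the highest. The level itself includes the FeSO4 mice.

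In each mouse, the median of the members was set against the NaCl/PBS mean on the scale of log2(normalized counts + 1). It was -0.02, -0.03 and 0.05 for NaCl/PBS and -0.38, -0.30 and -0.21 for FeSO4/PBS mice. In the NaCl/DEX mice it was -0.12, -0.14 and -0.15, and in the FeSO4/DEX mice -0.32, -0.34 and -0.38. The groups with FeSO4 did not overlap the groups with NaCl, and the NaCl/DEX mice lay between. Other protein-coding genes in the middle level range had the same order without overlap. Their medians were -0.02 to 0.01 in NaCl/PBS, -0.16 to -0.11 in NaCl/DEX and -0.28 to -0.23 in the FeSO4 mice. Per 1e6 counted reads, the members together held 2897 to 3118 reads in NaCl/PBS mice and 2563 to 2699 in NaCl/DEX mice. They held 2156 to 2510 in FeSO4/PBS mice and 2118 to 2306 in FeSO4/DEX mice. These shares carry no TMM factor. Without it, the 13857 tested genes also shifted down, to median LFCs of -0.34 (FeSO4 in PBS mice) and -0.18 (DEX in NaCl mice). The lower shares alone therefore do not set the Zfp genes apart.

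**Figure D2:**
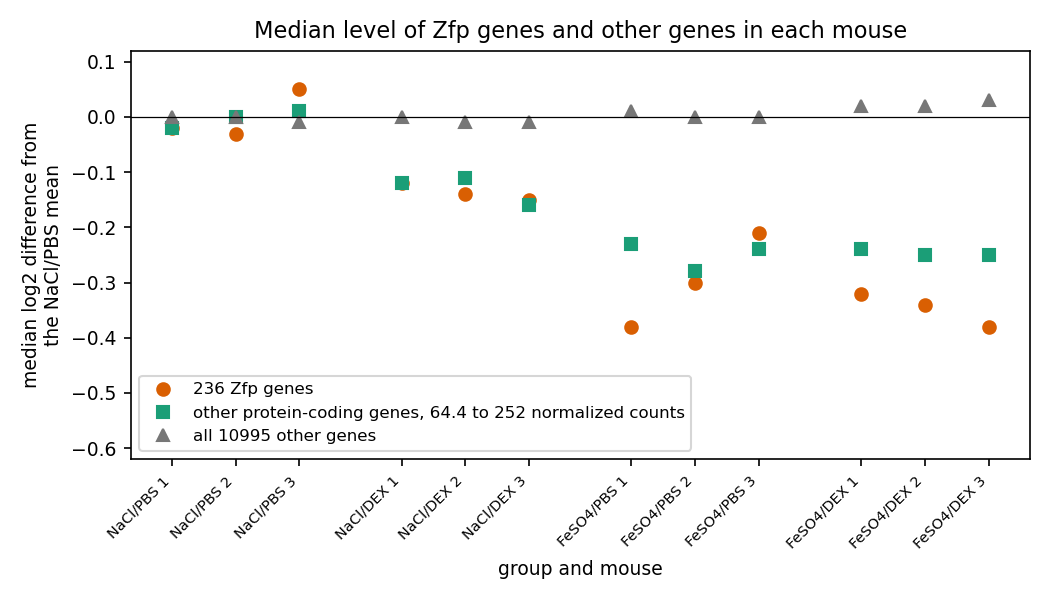
Each point is the median over genes, in 1 mouse, of the log2 difference from the NaCl/PBS mean, for the 236 Zfp genes (circles), other protein-coding genes of 64.4 to 252 normalized counts (squares) and all 10995 other genes (triangles). The Zfp genes lie between -0.38 and -0.21 in the FeSO4 mice, and below the squares in 5 of the 6 FeSO4 mice. The circles include members outside the level range of the squares, so circles and squares are not matched for level.

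Markers of other liver cells moved with FeSO4. All 6 Kupffer cell markers were lower in FeSO4/PBS mice, with sums of 6353 to 7335 normalized counts in NaCl/PBS and 3324 to 3929 in FeSO4/PBS mice, and 4 of the 5 neutrophil markers tested were higher, with sums of 112 to 289 and 722 to 882. Cholangiocyte markers, 2 of the 5 tested higher and 0 lower, summed to 534 to 686 and 1068 to 1377. Stellate cell markers, 2 of 6 higher and 1 lower, summed to 4411 to 4530 and 4579 to 6525. Endothelial markers, 2 of 6 higher and 2 lower, summed to 4654 to 5491 and 4991 to 6230. Lymphocyte markers, 0 of the 5 tested higher and 1 lower, summed to 57 to 81 and 60 to 79. Hepatocyte markers, 2 of 6 higher and 0 lower, summed to 1880878 to 2249551 and 2334187 to 2666530. Among all genes tested 27.3% were lower and 27.2% higher. No marker was at 0 in all libraries. Their part in the results on Zfp genes was not tested, and in bulk liver fewer cells of a type and less RNA per cell cannot be told apart.

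Among the 10 largest falls after FeSO4 with separate groups, 8 were genes with a KRAB A box. The box was found in 135 of the 236 members, in 51 of the 90 that fell and in 35 of the 52 that fell beyond an LFC of 1. Zfp626 (ENSMUSG00000030604, chr7:27506621-27522341), the gene of the first region shown, had 112, 136 and 148 normalized counts in NaCl/PBS mice against 30.2, 13.2 and 16.6 after FeSO4. All FeSO4/PBS mice lay far below all controls, with an LFC of -2.70 (SE 0.29, edgeR FDR 3.8e-06). Zfp60 (chr7:27430799-27453127), which lies before it on chromosome 7, had 168, 170 and 174 against 33.3, 39.7 and 21.7, with an LFC of -2.42 (SE 0.22, edgeR FDR 1.2e-06). Zfp820 on chromosome 17 had 143, 97.2 and 113 against 20.2, 20.3 and 24.2, with an LFC of -2.45 (SE 0.26, edgeR FDR 3.5e-06). Zfp467, a factor without a KRAB A box that is known for promoting adipocyte over osteoblast fate, had 350, 289 and 421 against 91.7, 59.0 and 45.9, with an LFC of -2.42 (SE 0.24, edgeR FDR 2.1e-06). In all of these the lowest control lay far above the highest FeSO4/PBS mouse, though separate groups were a condition for naming them. The other 6 falls were those of Zfp661 (-2.30), Zfp420 (-2.15), Zfp950 (-2.14), Zfp316 (-2.06), Zfp109 (-2.02) and Zfp383 (-1.89). Zfp420 and Zfp109 lay at the read minimum, with 10 reads in FeSO4/DEX mouse 3.

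The largest rise was that of Zfp746 (PARIS, ENSMUSG00000057691, chr6:48038681-48063679), a KRAB protein known as a substrate of the ubiquitin ligase Parkin and a repressor of the Ppargc1a promoter. It had 281, 405 and 280 normalized counts in controls against 1647, 1317 and 1418 after FeSO4. The groups were widely separated, with an LFC of 2.18 (SE 0.17, edgeR FDR 2.2e-07). Zfp746 and Zfp467, among the largest changes of opposite direction, lie in the same group of Zfp genes on chromosome 6. Zfp1001 rose from 19.4, 24.3 and 16.9 to 68.5, 96.6 and 77.8, an LFC of 2.00 (SE 0.31, edgeR FDR 1.1e-04). Zfp623 rose from 180, 179 and 196 to 426, 634 and 761 (LFC 1.71). Zfp64, a transcription factor that binds the promoter of the MLL gene, rose from 147, 157 and 141 to 410, 530 and 408 (LFC 1.60). Zfp691 had an LFC of 1.48 and Zfp9 of 1.47. The groups of these 6 genes did not overlap, which was a condition for naming them. In this comparison 23.3% of the members lay above all controls and 40.3% below, against 30.9% and 30.1% of the other genes. The LFC of Zfp691 was 1.06 without FeSO4/PBS mouse 1, its highest.

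**Figure D3:**
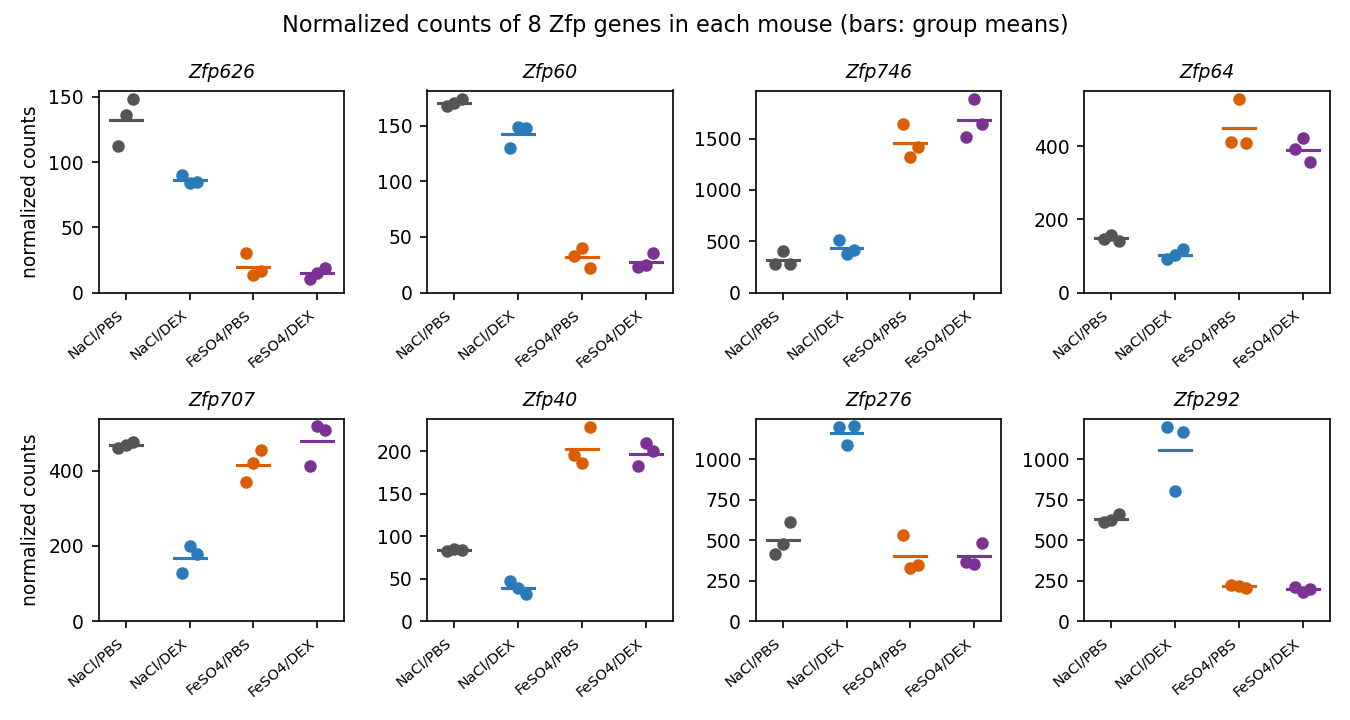
Points are the normalized counts of 8 Zfp genes in each of the 12 mice, by group, with a bar at each group mean. Zfp626 and Zfp60 are low and Zfp746 and Zfp64 high in both FeSO4 groups, while in Zfp707, Zfp40, Zfp276 and Zfp292 the NaCl/DEX mice stand apart from the NaCl/PBS mice.

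The FeSO4 effect was measured a second time in the mice given DEX, by 6 other libraries. In FeSO4/DEX against NaCl/DEX mice, 74 members (31.4%) were lower and 43 (18.2%) higher by edgeR FDR, while 20.9% of all genes tested were lower and 22.4% higher, and 21.3% and 23.2% of the other genes at the read minimum. The median LFC was -0.17 for the members, 0.03 for the other genes and -0.12 for other protein-coding genes in the middle level range, of which 26.8% were lower and 17.3% higher. Of the members in that range 29.7% were lower and 15.3% higher, with a median of -0.16. Scaled by library size alone, 89 members were lower and 29 higher, with a median LFC over all 13857 genes of -0.18. Of the 90 members that fell in PBS mice, 58 (64.4%) also fell in DEX mice, which is 78.4% of the 74. Of the 47 that rose, 35 (74.5%) also rose, 81.4% of the 43. In the other genes the shares were 61.6% and 77.8% for falls and 63.3% and 79.5% for rises. Of the members, 81.4% had the same sign in both comparisons, as had 80.6% of the others, and 2 members, Zfp592 and Zfp689, were called higher in PBS and lower in DEX mice.

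**Figure D4:**
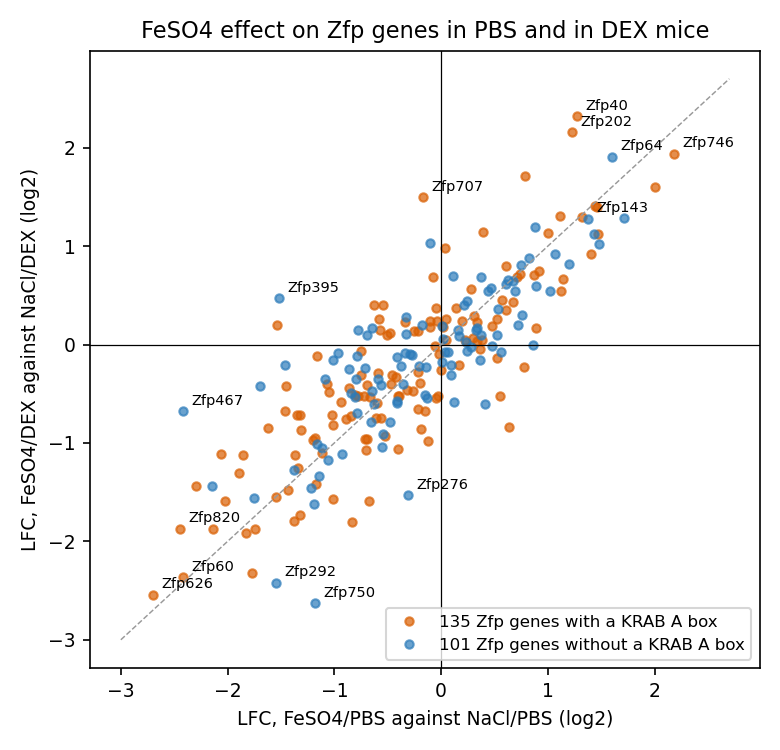
Each point is a Zfp gene, with the LFC of FeSO4/PBS against NaCl/PBS mice on the x axis and of FeSO4/DEX against NaCl/DEX mice on the y axis, both on the log2 scale, coloured by whether a KRAB A box was found, with a dashed line of equal values. Most points lie near the line, and Zfp707, Zfp395, Zfp467, Zfp276 and Zfp292 lie away from it.

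Zfp626 and Zfp60 had LFCs of -2.54 (SE 0.31, edgeR FDR 1.8e-05) and -2.36 (SE 0.23, edgeR FDR 2.8e-06) in the DEX mice, and Zfp746 of 1.94 (SE 0.17, edgeR FDR 9.3e-07). Zfp292 had an LFC of -2.42 in DEX and -1.55 in PBS mice, and Zfp40 of 2.32 and 1.27, and these differences passed the interaction test given further on. Zfp750 had -2.63 and -1.18 (edgeR FDR of the difference 0.10) and Zfp202 2.16 and 1.23 (edgeR FDR of the difference 0.25), which did not pass.

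The members were also described by class, with no test between classes. Of the 135 with a KRAB A box, 51 (37.8%) were lower and 21 (15.6%) higher in FeSO4/PBS mice, with a median LFC of -0.39. Of the 101 without it, 39 (38.6%) were lower and 26 (25.7%) higher, with a median of -0.15. In the middle level range, members without the box had the larger share lower, 48.9% of 45 against 39.7% of 73, with medians of -0.36 and -0.26. In DEX mice the order was the other way round, with 9 of the 45 without and 26 of the 73 with the box lower and medians of -0.12 and -0.29. By number of fingers, 26 of 49 members with 15 or more fingers were lower and 6 higher, with a median LFC of -0.58, while 18 of 52 members with 0 to 6 fingers were lower and 16 higher, with a median of 0.01. In DEX mice the medians of these groups were -0.59 and -0.04. Of all members 38.1% were lower and 19.9% higher in PBS mice, and of all genes tested 27.3% and 27.2%. The groups by number of fingers were not matched for level. Across the 236 members, the number of fingers and the LFC in PBS mice had a Pearson r of -0.21, the log2 level and the LFC one of 0.24. These describe genes of the same libraries, which are not independent replicates. The level includes the FeSO4 mice, so its r with the LFC is partly built in.

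In 10 stretches of the genome, Zfp genes followed each other with gaps of at most 500000 bases and held 5 or more members, 88 members in all. Their members ranged widely, and the shares of all tested genes that fell, 27.3% in PBS and 20.9% in DEX mice, stand beside the counts. In the stretch chr7:29467960-29869215, 6 of 9 members fell after FeSO4 in PBS mice and 8 in DEX mice, with medians of -1.17 and -1.31, and 0 rose. Its members are Zfp84, Zfp790, Zfp420, Zfp27, Zfp383, Zfp74, Zfp568, Zfp260 and Zfp146. In chr13:67186660-67975804, 6 of 11 members, all with a KRAB A box, fell and 0 rose, with a median of -0.72, and 4 fell in DEX mice. The 20 members in chr17:21229165-23818522, all with the box, held 7 that fell and 3 that rose, from Zfp820 at -2.45 to Zfp40 at 1.27, with a median of -0.13. In chr6:47796198-48600161 the 8 members ran from Zfp467 at -2.42 to Zfp746 at 2.18, with 1 lower, 3 higher and a median of 0.15. In chr8:69661686-70243828, 1 of 5 members fell and 2 rose, with medians of 0.31 in PBS and 0.29 in DEX mice. The other 5 stretches held 1 to 4 members that fell and 0 to 2 that rose in PBS mice, with medians from -0.67 to -0.04.

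Genes with known roles were taken from lists written with earlier results of these data in view. Of 4 KRAB genes that silence retroelements or protect imprints, 2 fell in PBS mice and 3 in DEX mice, and 0 rose. Beside these lists stand all genes tested, of which 27.3% fell and 27.2% rose in PBS mice and 20.9% and 22.4% in DEX mice. Zfp809, which silences murine leukemia virus, had 331, 324 and 291 normalized counts in controls against 216, 121 and 131 after FeSO4. The groups were separate, with an LFC of -1.01 (SE 0.20, edgeR FDR 6.4e-04) and of -1.57 (SE 0.20, edgeR FDR 3.0e-05) in DEX mice. Zfp932, which silences endogenous retroviruses, had LFCs of -1.32 and -1.73, but 49.5% of its 100-base windows were also present in another gene's transcripts. Zfp445 had -0.22 (SE 0.11, edgeR FDR 0.10) in PBS mice and -0.66 (SE 0.11, edgeR FDR 3.0e-04) in DEX mice. Zfp568, a repressor of a placental Igf2 promoter, had -0.02 and -0.10 and passed in neither.

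Of 23 transcription regulators without a KRAB domain, 11 fell and 6 rose in PBS mice, with a median LFC of -0.33, and 8 fell and 3 rose in DEX mice, with a median of -0.16. Of all members 38.1% fell and 19.9% rose in PBS mice, and 31.4% fell and 18.2% rose in DEX mice. Zfp143, an activator of small nuclear RNA genes, had 111, 114 and 122 normalized counts in controls against 282, 312 and 312 after FeSO4. These groups did not come near each other, with an LFC of 1.38 (SE 0.12, edgeR FDR 8.1e-07) and of 1.28 (SE 0.12, edgeR FDR 2.5e-06) in DEX mice. Zfp219 fell with an LFC of -1.16, Zfp692 of -1.01 and Zfp148 of -0.56 in PBS mice. In DEX mice Zfp219 and Zfp148 fell with -1.01 and -0.41, and Zfp692 did not pass, at -0.16 (edgeR FDR 0.56). Zfp687 and Zfp532, 2 proteins of a chromatin complex with Zfp592, fell with LFCs of -0.84 and -0.86 in PBS mice, whereas Zfp592 rose with 0.41 (SE 0.11, edgeR FDR 0.0059). In DEX mice Zfp687 fell with -0.49 and Zfp592 with -0.60, and Zfp532 did not pass, at -0.25 (edgeR FDR 0.51).

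Of 12 members with functions on RNA, ribosomes, splicing, ubiquitin or SUMO, 6 rose and 3 fell in PBS mice, with a median of 0.30. Of all genes tested 27.2% rose and 27.3% fell in PBS mice, and of all members 19.9% and 38.1%. Members above 252 normalized counts had 37.3% higher and 27.1% lower, and the 12 were not matched for level. Zfp622, which acts in the maturation of the large ribosomal subunit, had 352, 313 and 343 normalized counts in controls against 986, 849 and 880 after FeSO4. The groups were far apart, with an LFC of 1.43 (SE 0.10, edgeR FDR 1.4e-07). Zfp593, another factor of that subunit, rose with an LFC of 0.89, Zfp326, a splicing factor, with 0.67, Zfp451, a SUMO ligase, with 0.53, Zfp598 with 0.44 and Zfp106 with 0.24 (edgeR FDR 0.049). The falls were those of Zfp318 (-1.06), Zfp638 (-0.79) and the spindle protein Zfp207 (-0.66). In DEX mice 4 of the 12 rose and 3 fell, with a median of 0.01, while 22.4% of all genes tested rose and 20.9% fell.

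Of 20 partners of KRAB proteins and genes of heterochromatin, 7 fell and 2 rose in FeSO4/PBS mice, with a median LFC of -0.24. Trim28, the KRAB corepressor, had 829 ± 55.5 normalized counts in controls (SD, n = 3) against 715 ± 157 after FeSO4 (SD, n = 3). Trim28 did not pass the test, at an LFC of -0.21 (SE 0.13, edgeR FDR 0.19). Tasor, a subunit of the HUSH silencing complex, had 729 ± 112 (SD, n = 3) against 179 ± 11.5 (SD, n = 3). It fell with an LFC of -2.03 (SE 0.16, edgeR FDR 3.3e-07) in PBS mice and -1.95 in DEX mice. Other HUSH subunits on the list did not follow Tasor in PBS mice. Pphln1 rose with 0.61 (edgeR FDR 0.0024) in PBS and 0.65 (edgeR FDR 0.0023) in DEX mice. Mphosph8 did not pass in PBS mice, at -0.27 (edgeR FDR 0.078), and fell with -1.30 (edgeR FDR 2.3e-06) in DEX mice. The heterochromatin proteins Cbx5 and Cbx1 fell with LFCs of -1.21 and -1.02. Resf1, which acts with Setdb1, rose with 1.54 (SE 0.27, edgeR FDR 2.7e-04). In DEX mice 8 of the 20 fell and 5 rose, with a median of -0.14. Of all genes tested, 27.3% fell and 27.2% rose in PBS mice, and 20.9% fell and 22.4% rose in DEX mice.

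The DEX effect without FeSO4 was taken from NaCl/DEX against NaCl/PBS mice. By edgeR FDR, 28 members (11.9%) were lower and 8 (3.39%) higher, while 7.15% of all genes tested were lower and 6.50% higher, and 7.29% and 7.40% of the other genes at the read minimum. The members' median LFC was -0.10 and that of the other genes 0.00. Of other protein-coding genes in the middle level range 10.9% were lower and 3.83% higher, with a median of -0.11, and of the members there 15.3% and 0.847%. With KRAB A box 17 of 135 (12.6%) were lower and 1 (0.741%) higher, and without it 11 of 101 (10.9%) and 7 (6.93%). In the middle level range 13.7% of the 73 members with the box and 17.8% of the 45 without it were lower. No test was made between these classes. Scaled by library size alone, 50 were lower and 5 higher, with a median LFC of all tested genes of -0.18. Leaving out any of the 6 mice left fewer falls, 10, 15 and 11 without NaCl/DEX mouse 1, 2 and 3 and 13, 16 and 9 without NaCl/PBS mouse 1, 2 and 3. Rises numbered 5 without NaCl/DEX mouse 2 and 6 without any other. Kupffer cell markers summed to 5715 to 6892 normalized counts in NaCl/DEX mice and neutrophil markers to 75 to 113, and their part was not tested.

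Among called members with separate groups, the largest fall after DEX was that of Zfp395 (ENSMUSG00000034522), which is known as a hypoxia-induced factor. It had 977, 853 and 866 normalized counts in controls against 274, 197 and 288 after DEX. The groups were far apart, with an LFC of -1.83 (SE 0.35, edgeR FDR 0.0027). Its FeSO4/PBS mice spread from 116 to 481, with mouse 1 lowest. Zfp467 had 125, 115 and 119 in NaCl/DEX mice, an LFC of -1.56 (SE 0.23, edgeR FDR 3.6e-04), and so was lower after either agent alone. Zfp707 (ENSMUSG00000034429, chr15:75840966-75847717), a KRAB gene, had 460, 468 and 476 in controls against 128, 199 and 178, with an LFC of -1.47 (SE 0.16, edgeR FDR 3.0e-05). Zfp39 had an LFC of -1.21 (SE 0.28, edgeR FDR 0.010). Zfp13 had an LFC of -1.28 (SE 0.40, edgeR FDR 0.049), which ran from -1.51 to -1.07 with 1 mouse left out and was past the threshold only without NaCl/PBS mouse 1.

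The largest rise was that of Zfp276 (ENSMUSG00000001065, chr8:123980290-124000361), with 414, 479 and 612 normalized counts in controls against 1197, 1086 and 1205 after DEX. The groups were well apart, with an LFC of 1.21 (SE 0.19, edgeR FDR 6.4e-04). Zfp592 had 578, 517 and 531 against 1240, 1102 and 1247, with an LFC of 1.14 (SE 0.11, edgeR FDR 1.3e-05). Zfp410, an activator of the Chd4 gene, had 230, 254 and 264 against 474, 510 and 428, with an LFC of 0.92 (SE 0.11, edgeR FDR 5.9e-05). Zfp292, identified as a growth hormone-dependent factor, had 611, 626 and 664 against 1198, 804 and 1166, with an LFC of 0.74 (SE 0.14, edgeR FDR 0.0025). No NaCl/DEX mouse of these genes lay within the range of the controls, which was a condition for naming them. In this comparison 15.3% of the members lay above all controls and 29.2% below, against 19.9% and 19.7% of the other genes. Zfp750, a regulator of epidermal differentiation, had an LFC of 1.03 (SE 0.32, edgeR FDR 0.045), which ran from 0.94 to 1.18 with 1 mouse left out and failed the threshold without any of the 6.

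FeSO4 in PBS mice and DEX in NaCl mice share the NaCl/PBS controls, so their values are set side by side with no count of agreement. The members called in opposite directions are given next, and nothing is read from their number. Zfp40 was higher after FeSO4 with an LFC of 1.27 and lower after DEX with -1.09, Zfp202, whose human counterpart represses genes of lipid metabolism, had 1.23 and -1.12, and Zfp64 1.60 and -0.51. Zfp292 was lower after FeSO4 with -1.55 and higher after DEX with 0.74, Zfp750 had -1.18 and 1.03 and Zfp236 -0.55 and 0.72. Both FeSO4 calls held without any 1 FeSO4/PBS mouse, but the LFC ran from -0.34 without mouse 1 to -0.73 without mouse 2 for Zfp236, and from -0.80 without mouse 2 to -1.77 without mouse 1 for Zfp750. The DEX call of Zfp64 (edgeR FDR 0.036) failed without any mouse but NaCl/DEX mouse 3, and that of Zfp202 (edgeR FDR 0.038) without NaCl/DEX mouse 1 or 2 or NaCl/PBS mouse 1 or 2.

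After FeSO4, DEX left no Zfp gene past the threshold. In FeSO4/DEX against FeSO4/PBS mice 0 members and 0 of all 13857 genes tested were called by edgeR, and 0% is thus the background. At an unadjusted p under 0.05, 18 members (7.63%) were lower and 4 (1.69%) higher, against 3.22% and 3.24% of the other genes. DESeq2 called 1 member, Zfp397, lower. The members' median LFC was -0.08 and that of the other genes 0.01. The 3 members of lowest p were Zfp397, Zfp689 and Zfp790. Zfp397 had 201, 173 and 213 normalized counts in FeSO4/PBS and 102, 128 and 112 in FeSO4/DEX mice, with separate groups and an LFC of -0.78 (SE 0.16, edgeR FDR 0.41). Zfp689 and Zfp790 had LFCs of -1.05 (SE 0.27, edgeR FDR 0.70) and -0.83 (SE 0.23, edgeR FDR 0.70).

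The difference between the DEX responses in FeSO4 and in NaCl mice was tested as an interaction over all 12 libraries. It passed in 12 members, with 7 (2.97%) higher and 5 (2.12%) lower in FeSO4 mice, against 2.99% and 3.20% of all genes tested, 3.22% and 3.66% of the other genes at the read minimum and 4.47% and 1.83% of other protein-coding genes in the middle level range. With DESeq2 size factors 4 were higher and 6 lower. With 1 mouse left out 3 to 6 were higher, and 4 or fewer without any of the NaCl mice or without FeSO4/DEX mouse 1 or 2. Likewise 3 to 9 were lower, with 9 without FeSO4/PBS mouse 1 and 3 without NaCl/DEX mouse 1 or 3. Zfp707 had the lowest p. Its 128, 199 and 178 normalized counts in NaCl/DEX mice were below all other groups, with 371, 420 and 454 in FeSO4/PBS and 413, 518 and 509 in FeSO4/DEX mice. The response was -1.47 in NaCl and 0.21 in FeSO4 mice, a difference of 1.68 (SE 0.22, edgeR FDR 4.9e-04).

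For Zfp592 the response was 1.14 in NaCl and 0.14 in FeSO4 mice, a difference of -1.01 (SE 0.15, edgeR FDR 0.0016), and for Zfp410 0.92 and 0.05, a difference of -0.87 (SE 0.15, edgeR FDR 0.0034). Zfp410 had 463, 445 and 454 normalized counts in FeSO4/PBS and 461, 477 and 470 in FeSO4/DEX mice, which is the range of the NaCl/DEX mice. Zfp467 had responses of -1.56 and 0.18, Zfp276 of 1.21 and -0.01, and Zfp40 of -1.09 and -0.04. The difference of Zfp40 failed the threshold without NaCl/DEX mouse 3. Of the 12, 11 were called for DEX in NaCl mice, and Zfp689 in neither (0.43 and -1.05).

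**Figure D5:**
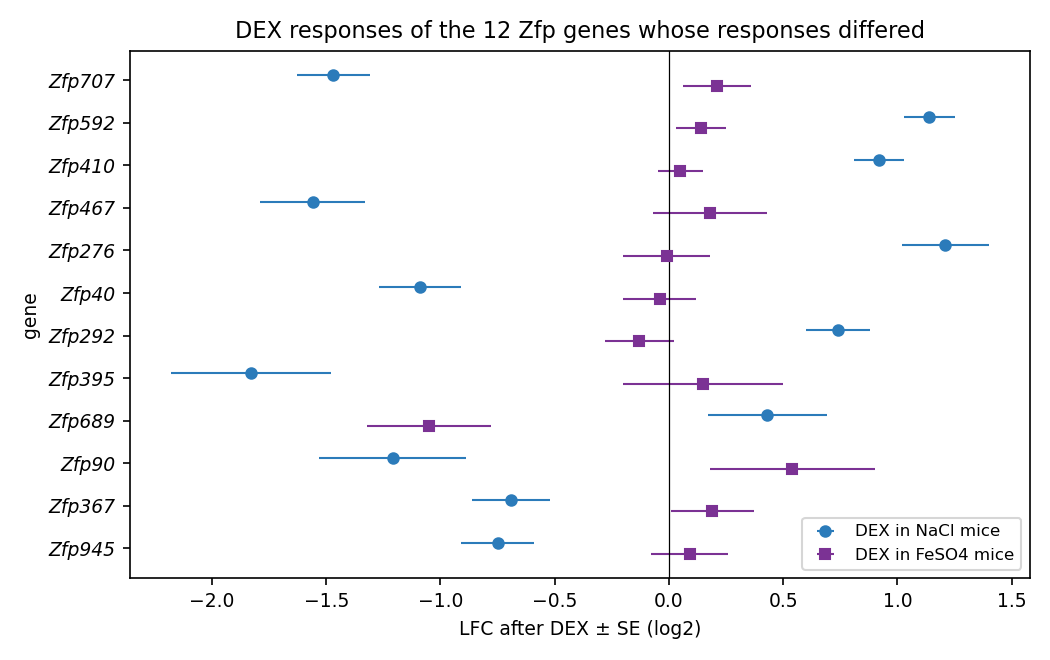
Points are the LFC after DEX with its SE, on the log2 scale, in NaCl mice (circles) and in FeSO4 mice (squares), for the 12 Zfp genes whose DEX responses differed by the interaction test. In FeSO4 mice 10 of the 12 lie between -0.13 and 0.21, and Zfp90 and Zfp689 lie at 0.54 and -1.05.

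Reads that match several genes limit some members. Of the 236, 173 had no 100-base window in common with another gene's transcripts, 20 had more than 10% of their windows in common, up to 69.9%, and the counts of these 20 are uncertain. Exons of 25 members overlapped another gene on the same strand and those of 127 members a gene on the other strand, among them Zfp626, Zfp60, Zfp143, Zfp809, Zfp219, Zfp276, Zfp395, Zfp410, Zfp750 and Zfp397. Which strand column was counted is not given in the sources used here, so reads of these overlaps cannot be told apart.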

How the data were processed

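Bulk RNAseq of 12 mouse livers was used. The authors prepared stranded mRNA libraries, sequenced single-end reads on a NovaSeq, mapped them to mm39 with STAR 2.7.10b and deposited raw counts per Ensembl gene, whole numbers without normalization. Which strand column of STAR they took is not given in the sources used here. Symbols, types and positions came from GENCODE vM39 on GRCm39, another release than the authors used. The members and gene lists were chosen with earlier results of these data known.

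With edgeR 4.0.16 (R 4.3.3), the 13857 genes kept by its filter on low counts entered 1 quasi-likelihood model of 4 groups with TMM factors, with Benjamini-Hochberg adjustment over all of them (edgeR FDR). Normalized counts were brought to the mean effective library size by TMM. TMM factors lay between 1.144 and 1.159 in NaCl/PBS and between 0.8963 and 0.9515 in FeSO4/PBS mice. DESeq2 1.42.0, other scalings and filters, a block for the replicate number, the libraries of a comparison alone and each mouse left out were alternatives. Pairs of mice of a group differed beyond sampling noise (chi-square per gene 18.3 to 89.5, the highest with FeSO4/PBS mouse 1). The labels do not name litters or cages, so p-values measure the spread between these mice.

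Named genes were, among called members with separate groups, the 10 largest falls and 6 largest rises after FeSO4 and 5 of each after DEX, the 3 of lowest p for DEX in FeSO4 mice, the 6 of lowest p for the interaction, members with opposite calls, the 5 highest per length, the 3 on either side of the read minimum, and the role lists. Others (Zfp90, and the members of a stretch on chromosome 7) were picked with their values known. Upstream sequence is given for 4 genes and is not reported here for other named genes. Zinc fingers were counted in translated coding parts as 2 cysteines with 2 to 4 residues between, then 12 residues and a histidine pair with 3 to 5 between, and KRAB A boxes with a profile of 39 residues (pyhmmer 0.12.3, E-value of 1e-05 or less).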

Additional observations from a re-analysis of the deposited data

Results flagged for a closer look

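The effect of DEX in NaCl mice and in FeSO4 mice was the contrast compared, and the test of the difference itself, the edgeR interaction term at an FDR of 0.05 or less, marked 12 Zfp genes. Positive differences mean a higher LFC after DEX in FeSO4 mice. They were Zfp707 (1.68, edgeR FDR 4.9e-04), Zfp467 (1.74, edgeR FDR 0.0078), Zfp40 (1.05, edgeR FDR 0.018), Zfp395 (1.98, edgeR FDR 0.027), Zfp90 (1.75, edgeR FDR 0.047), Zfp367 (0.88, edgeR FDR 0.049), Zfp945 (0.83, edgeR FDR 0.049). The negative differences were those of Zfp592 (-1.01, edgeR FDR 0.0016), Zfp410 (-0.87, edgeR FDR 0.0034), Zfp276 (-1.22, edgeR FDR 0.016), Zfp292 (-0.86, edgeR FDR 0.023), Zfp689 (-1.48, edgeR FDR 0.033). Groups of 3 mice are too small for a test of a single outlying mouse.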

How the results depend on the processing

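Under alternative settings, 124 recounts of called Zfp genes stayed within 1.5 times the reported count and 36 did not. With an LFC beyond 1 required, the falls and rises were 52 and 20 for FeSO4 in PBS mice, 39 and 20 for FeSO4 in DEX mice and 11 and 3 for DEX in NaCl mice, and 3 members were lower in the interaction. Scaled by library size alone, 28 rose after FeSO4 in PBS mice, and 50 fell and 5 rose after DEX in NaCl mice. Fitted on the libraries of the comparison alone, 14 rose after DEX. For DEX in FeSO4 mice the fit with no filter on low counts called 1 higher (Zfp217) and 1 lower (Zfp397), and DESeq2 called 1 lower. In the interaction, 4 were higher with DESeq2 size factors, 8 were lower with no filter and 12 with DESeq2. The cause of these changes was not tested.

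With 1 mouse left out, the counts ranged from 75 to 88 lower and 41 to 54 higher for FeSO4 in PBS mice, 64 to 72 and 36 to 41 for FeSO4 in DEX mice, 9 to 16 and 5 to 6 for DEX in NaCl mice, 3 to 9 and 3 to 6 for the interaction, and 0 throughout for DEX in FeSO4 mice. Same-numbered mice had correlations of -0.092 to 0.129 over 18 pairs, and other pairs of -0.151 to 0.111 over 36. Of 12 libraries, 5 correlated best with their own number. Between NaCl/DEX and NaCl/PBS mice, same-numbered pairs had 0.129, 0.109 and 0.052, and other pairs -0.151 to 0.03. These values do not settle whether the replicate number of the labels pairs the mice. With the replicate number as a block, 4 members were higher in the interaction, and every other count stayed within 1.5 times.

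Without the read minimum, 302 Zfp genes were tested, of which 133 fell and 50 rose after FeSO4 in PBS mice. A gene that passed the low-count filter through the group where it is high had to differ, so this count supports nothing. In the middle level range, a background chosen after seeing the data, the median of the members minus that of the others was -0.12 for FeSO4 in PBS mice, -0.04 in DEX mice, 0.00 for DEX in NaCl mice and -0.08 for the interaction, where it was 0.01 over all levels. For DEX in FeSO4 mice this difference was -0.09 in the middle level range and -0.09 over all levels. Of the values of single genes under alternatives, 572 kept direction and call, 28 lost their call and 2 gained one. Groups of 3 limit what small differences can be seen.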

Other observations

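Other zinc finger families were counted in the same way, with no test between families. After FeSO4 in PBS mice, 16 of 35 Zbtb genes, whose proteins join zinc fingers to a BTB domain, were lower and 7 higher by edgeR FDR, with a median LFC of -0.38. Of 15 Zscan and Zkscan genes 7 were lower and 2 higher, with a median of 0.02. Zc3h genes, whose proteins bind RNA, held 1 lower and 9 higher of 17, with a median of 0.32. Klf genes, transcription factors with fingers near the end of the protein, held 2 lower and 8 higher of 12, with a median of 1.36. These families were taken at the same minimum of 10 reads, at which 26.9% of all genes other than Zfp were lower and 29.1% higher.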
